A study of Mus musculus with 2 samples.

Results

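The genes described here encode the killing and signalling tools of cytotoxic lymphocytes. They are 5 granzymes (Gzma, Gzmb, Gzmc, Gzmk and Gzmm), perforin (Prf1), the granule proteoglycan serglycin (Srgn), the granule membrane protein Nkg7, Fas ligand (Fasl) and interferon gamma (Ifng). The 10 genes were taken as a list of names, drawn up with earlier results of these data known. A gene counted as measured where an array feature (a transcript cluster) carried its symbol and no other symbol in the platform annotation. Each of the 10 genes had 1 such feature, out of 61344 features on the array. Of these, 28573 carried 1 symbol, and together they covered 28281 named genes.

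Gene expression was measured on whole-transcript arrays in cells labelled ILCreg, regulatory innate lymphoid cells. The source was small intestine. The mice were C57BL/6, aged 8 weeks, kept in SPF housing, and carried the IL-10-GFP knockin, which places green fluorescent protein in the interleukin 10 gene. The series holds 1 group, with 2 arrays (replicates 1 and 2), no treatment and no other cell population. Both arrays share the knockin allele, and the labels state neither how many mice were used nor whether each array had its own mice and its own sort. The spread of the 2 arrays may therefore be only technical.

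Granzymes are serine proteases that lymphocytes store in acidic granules, bound to serglycin, after a dipeptidase has removed their activation peptide. When the lymphocyte engages a target, the granules fuse with its membrane, perforin forms pores, and granzymes enter the target cell and start its death. Fas ligand starts death through a receptor instead, and interferon gamma acts through its own receptor on many cell types. In the gut these genes are best known from intraepithelial T cells, natural killer (NK) cells and ILC1, a type 1 innate lymphoid cell, and some granzymes are also known from mast cells and plasmacytoid dendritic cells.

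The upstream sequences of Gzma, Gzmb, Gzmc and Prf1 are shown because the data divide these genes, with Gzma and Gzmb above the reference signal and Gzmc and Prf1 below it. Each is the 250 bases before the RefSeq start of the gene in GRCm38.p6, written 5′ to 3′ on the strand of the gene. Capitals mark matches, on either strand, to the letters TGANTCA (AP-1), TGACGT (the core of a cyclic AMP response element), TGTGGTT (Runx), GGTGTGA (T-box) or TTCNNNGAA (STAT).
Gzma, chr13:113100982-113101231, minus strand: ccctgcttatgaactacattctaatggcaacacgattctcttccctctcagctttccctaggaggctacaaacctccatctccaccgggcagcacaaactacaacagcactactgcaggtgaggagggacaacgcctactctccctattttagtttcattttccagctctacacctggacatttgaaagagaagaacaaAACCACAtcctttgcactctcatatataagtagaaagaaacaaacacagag
Gzmb, chr14:56262335-56262584, minus strand: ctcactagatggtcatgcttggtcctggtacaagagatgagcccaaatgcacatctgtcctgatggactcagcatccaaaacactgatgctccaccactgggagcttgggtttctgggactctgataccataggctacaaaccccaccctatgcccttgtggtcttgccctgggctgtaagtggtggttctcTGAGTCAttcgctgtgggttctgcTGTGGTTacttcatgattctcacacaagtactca
Gzmc, chr14:56234658-56234907, minus strand: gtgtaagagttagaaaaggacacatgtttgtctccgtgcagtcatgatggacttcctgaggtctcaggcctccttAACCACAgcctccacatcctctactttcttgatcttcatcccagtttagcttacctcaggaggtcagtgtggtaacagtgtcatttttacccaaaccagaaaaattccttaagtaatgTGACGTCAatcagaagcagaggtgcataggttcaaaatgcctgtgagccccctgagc
Prf1, chr10:61297586-61297835, plus strand: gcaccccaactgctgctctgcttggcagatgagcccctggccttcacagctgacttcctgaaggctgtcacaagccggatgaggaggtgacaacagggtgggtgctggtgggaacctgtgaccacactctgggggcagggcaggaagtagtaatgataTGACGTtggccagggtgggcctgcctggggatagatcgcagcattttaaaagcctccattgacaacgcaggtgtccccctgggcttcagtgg

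In these windows Gzmb held AP-1 letters from 58 to 52 bases before the start and Runx letters from 34 to 28 bases before it. Gzma held Runx letters from 51 to 45 bases before the start. Gzmc held Runx letters further away, from 175 to 169 bases before the start, and a palindrome in which the TGACGT letters match on both strands and overlap, from 57 to 50 bases before it. Prf1 held TGACGT from 92 to 87 bases before its start. All 10 genes had a window in the RefSeq table, 12 windows in all because Gzmm and Srgn had several starts, and 10 of the 12 held a match. Among the 12, AP-1 letters were in 1, TGACGT in 3, Runx letters in 4, T-box letters in 3 and STAT letters in 3. Over 32851 windows of the same length, AP-1 letters were in 6.75%, TGACGT in 6.47%, Runx letters in 4.40%, T-box letters in 3.33%, STAT letters in 7.02% and any of the 5 in 25.0%. The motifs were chosen after these sequences were seen, so nothing is read from the higher share among the 12. A match describes letters only and is not a bound site.

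A reference for signal without transcript was taken from the 1678 named genes of taste, olfactory and vomeronasal receptors. The threshold on each array was the 95th percentile of the reference, 6.74 for replicate 1 and 6.19 for replicate 2 on the log2 scale. A gene was called above it only where it was so on both arrays, as 41 of the reference genes (2.44%) were. Of all named genes, 31.7% were above the threshold, and of protein-coding genes outside the reference, 39.0%. Of the 10 effector genes, 7 were above it on both arrays and 3 on neither. The median signal of the 10 genes was 7.59, beside 5.43 for all named genes. With 1 group no test of a difference between groups is possible, and no p-value is given. A gene below the threshold cannot be told from the reference, and its transcript may still have been present. Probes differ in affinity, so signals do not order different genes by abundance.

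**Figure D1:**
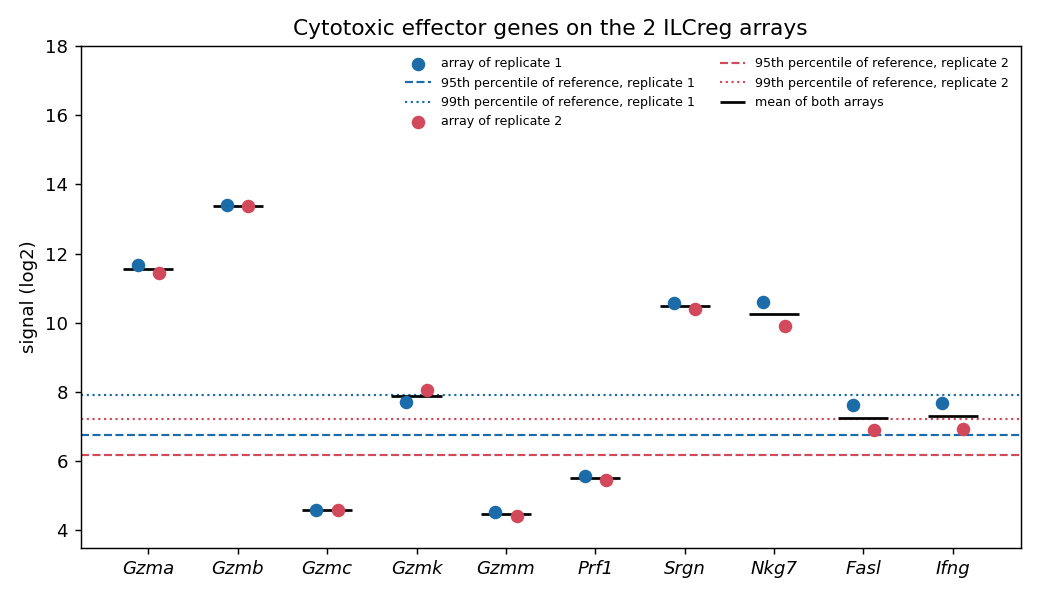
Log2 signal of the 10 effector genes, with 1 point for each array, a bar at the mean of both, and lines at the 95th (dashed) and 99th (dotted) percentiles of the reference on each array. Gzma, Gzmb, Srgn and Nkg7 lie above all lines, Gzmk, Fasl and Ifng lie above the dashed lines but not above both dotted ones, and Gzmc, Gzmm and Prf1 lie below all of them.

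Among the granzymes, Gzma, Gzmb and Gzmk were above the threshold, and Gzmc and Gzmm were not. Gzmb encodes granzyme B, which cleaves target proteins after aspartate and so activates caspases. Its signal was 13.40 (replicate 1) and 13.37 (replicate 2), mean 13.39 ± 0.02 (SD, n = 2), which put it 6.66 and 7.18 above the thresholds. Gzma encodes granzyme A, a protease of tryptic specificity. Its signal was 11.66 and 11.44 (11.55 ± 0.16), or 4.92 and 5.25 above the thresholds. No reference gene reached the signal of Gzma or Gzmb on either array.

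Gzmk encodes granzyme K, a tryptic protease whose gene neighbours Gzma on chromosome 13, with no protein-coding gene between them in the RefSeq order. Its signal was 7.71 and 8.05 (7.88 ± 0.24), only 0.96 and 1.86 above the thresholds. Of the reference genes, 21 had at least this signal for replicate 1, and 3 had for replicate 2. Gzmk was the only one of the 10 genes with a higher signal on the array of replicate 2 before centring.

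Gzmc, a close relative of Gzmb in rodents, had signals of 4.58 and 4.57 (4.58 ± 0.01). Gzmm, which encodes a granzyme with a preference for methionine and leucine, had 4.52 and 4.43 (4.47 ± 0.07). Both lay near the middle of the reference, whose medians were 4.54 and 4.38: 51.5% and 60.9% of reference genes lay below Gzmc on the arrays of replicates 1 and 2, and 48.7% and 53.3% lay below Gzmm.

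The other granzyme genes of the mouse lie beside Gzmc and Gzmb on chromosome 14, in a run of 7 neighbouring granzyme genes. Of the 3 with a feature of their own, 0 were above the threshold, beside 31.7% of all named genes. Gzmf gave 4.27 and 4.16, Gzmg 4.43 and 4.07, and Gzmn 4.46 and 4.29. Gzmd and Gzme share a feature that names both, so they could not be told apart, and that feature gave 4.78 and 4.70, also below the threshold. Gzmb was therefore the only gene of this run above the threshold on these arrays. These genes are close copies in part, and how far their probes share signal was not tested.

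**Figure D2:**
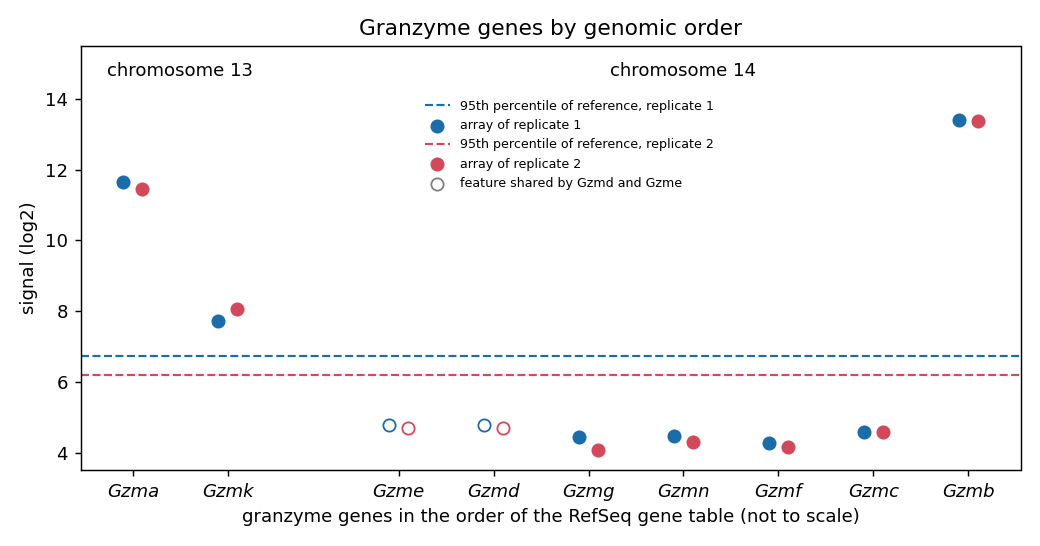
Log2 signal of the granzyme genes of chromosomes 13 and 14 on both arrays, in RefSeq gene order and not to scale, with dashed lines at the reference thresholds. On chromosome 14 Gzmb stands at 13.40 and 13.37, while all other features of the run, including the one shared by Gzmd and Gzme (open circles), lie below 5.

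Of the genes for other proteins of cytotoxic granules, Srgn and Nkg7 were above the threshold and Prf1 was not. Srgn encodes the proteoglycan core that holds granzymes and perforin in the granule, and it is also expressed by macrophages and most other blood cells. Its signal was 10.56 and 10.40 (10.48 ± 0.12), or 3.82 and 4.21 above the thresholds. Nkg7 encodes a membrane protein of cytotoxic granules that takes part in their release. Its signal was 10.59 and 9.89 (10.24 ± 0.49), or 3.85 and 3.70 above the thresholds, so that it cleared them by a like amount on both arrays despite the larger spread.

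Prf1 encodes the pore-forming protein that delivers granzymes to the cytosol of a target cell. Its signal was 5.56 and 5.46 (5.51 ± 0.07), and its margins over the thresholds were -1.18 and -0.73. On the array of replicate 1, 306 of the 1678 reference genes had at least the signal of Prf1, and on that of replicate 2, 218 had. The signals of both arrays were thus in the upper part of the reference but not above it.

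Fasl and Ifng were above the threshold by less than 1 on the log2 scale. Fasl gave 7.61 and 6.90 (7.26 ± 0.50), or 0.87 and 0.71 above the thresholds, and 11 reference genes were at least as high on both arrays. Ifng gave 7.67 and 6.92 (7.30 ± 0.53), or 0.93 and 0.73 above them, and 9 reference genes were at least as high on both arrays. With the 99th percentile of the reference as the threshold, 7.91 and 7.21, which 19.8% of all named genes passed, 4 of the 10 genes remained above it: Gzma, Gzmb, Srgn and Nkg7. The margin of Gzmk was then -0.20 on the array of replicate 1, and those of Fasl and Ifng were -0.29 and -0.31, and -0.23 and -0.28. Ifngas1, the long noncoding RNA gene beside Ifng, named after its values were seen, gave 4.56 and 4.37 and was below the threshold.

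Between the arrays, Ifng, Fasl and Nkg7 differed more than the other 7 genes did. Differences were taken as replicate 2 minus replicate 1 and centred on the median difference of all named genes, -0.05. They ranged from -0.70 for Ifng to 0.39 for Gzmk, and 0 of the 10 genes differed by more than 2-fold, which 3.45% of all named genes did. Past 1.5-fold there were 3 of the 10, beside 13.8% of all named genes: Ifng (-0.70), Fasl (-0.66) and Nkg7 (-0.65), all higher on the array of replicate 1. Gzma (-0.17), Srgn (-0.12), Prf1 (-0.06), Gzmm (-0.04), Gzmc (0.04) and Gzmb (0.02) lay closer to 0 than the median gene did in size, 0.21. With 1 array on each side, no replicate checks these differences.

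**Figure D3:**
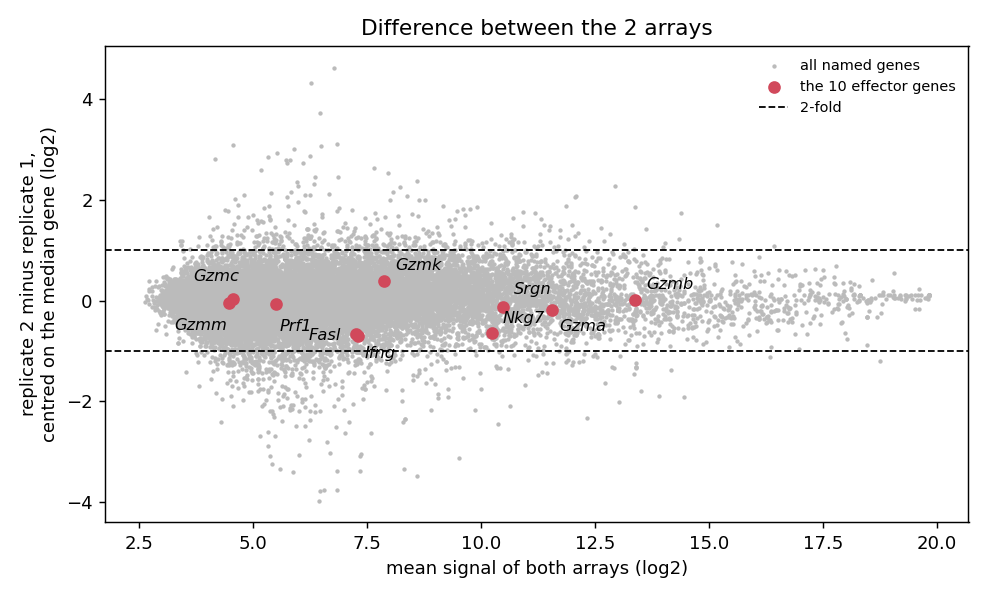
Centred difference between the arrays (replicate 2 minus replicate 1, log2) against the mean signal (log2) for all 28281 named genes (grey) and the 10 effector genes (red), with dashed lines at 2-fold. All 10 lie between the dashed lines, and Ifng, Fasl and Nkg7 lie lowest, between -0.70 and -0.65.

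The machinery that makes, holds and releases granzymes was above the threshold for 14 of 17 measured genes, with a median signal of 10.92. Of all named genes, 31.7% were above it, and of protein-coding genes outside the reference, 39.0%. Ctsc encodes cathepsin C, the dipeptidase that activates granzymes, and gave 13.00 and 12.67. The granule and lysosome genes Cd63 (15.43 and 15.21), which had the highest signal of this list, Lamp1 (13.53 and 13.47) and Lamp2 (13.80 and 13.86) were above it as well. These genes are used by nearly all cells with lysosomes, so they are not particular to cytotoxic granules. The other 3 genes were below the threshold on both arrays. Unc13d, which encodes the priming factor Munc13-4, gave 5.28 and 5.35, Rab27a, which encodes a GTPase that docks granules, 5.77 and 5.43, and Cst7, which encodes the cathepsin inhibitor cystatin F, 6.20 and 5.49. Cst7 also had the largest difference of the list between the arrays, -0.66. Their partners Stx11 (7.06 and 7.27) and Stxbp2 (8.50 and 8.44), both needed for granule fusion, were above the threshold.

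Serpin genes listed as granzyme inhibitors were above the threshold for 4 of 5 measured genes, beside 31.7% of all named genes. Whether each of them inhibits a granzyme was not tested. Serpinb9, which encodes the inhibitor of granzyme B, gave 7.78 and 7.40. Serpinb6b gave 8.60 and 9.17, Serpinb6a 7.08 and 7.63, and Serpina3f 7.14 and 6.91. Serpinb9b, at 5.10 and 5.07, was below. With the 99th percentile of the reference, only Serpinb6b of these 5 stayed above, a share like the 19.8% of all named genes.

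Among proteins that granzymes or death receptors act on, 8 of 15 measured genes were above the threshold, 5 were on neither array and 2 on 1 array. Of all named genes 31.7% were above on both arrays, and of protein-coding genes outside the reference 39.0%. Set, which encodes a subunit of the complex that granzyme A cleaves, had the highest signal of the list at 10.67 and 11.16, and Hmgb2, of the same complex, had the largest difference at -0.86 (10.75 and 9.84). Casp8, the initiator caspase of death receptors, gave 9.21 and 9.53, and Cycs, the cytochrome c gene, 10.69 and 10.07. Fas, which encodes the receptor of Fas ligand, gave 6.37 and 5.86, its adaptor Fadd 5.36 and 5.28, and Bid, a substrate of granzyme B, 5.63 and 5.32, and all were below, as was the nuclease gene Dffb. The caspase gene Casp9 and the DNA repair gene Apex1 were above only on the array of replicate 2. Gsdme, which encodes a gasdermin that granzyme B can cleave, had the lowest signal of the list at 4.84 and 4.86.

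Of other effector cytokines and ligands, 4 of 9 were above the threshold, the tumour necrosis factor gene Tnf (8.05 and 7.76) and the chemokine genes Ccl3 (11.40 and 11.32), Ccl4 (6.94 and 7.47) and Ccl5 (7.49 and 6.95). This share, 44.4%, is close to the 39.0% of protein-coding genes outside the reference, so nothing is read from the count. Macrophages express Tnf, Ccl3 and Ccl4 too. Lta, the lymphotoxin alpha gene, gave 4.33 and 3.96 and was below on both arrays, as were Ltb and Csf2. Tnfsf10, which encodes the death ligand TRAIL, was above the threshold only on the array of replicate 2 (6.11 and 7.20, a centred difference of 1.13), and so was the chemokine gene Xcl1 (6.24 and 6.31).

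Receptors through which cytokines induce granzymes and interferon gamma were above the threshold for 7 of 9 genes, beside 31.7% of all named genes. Il12rb2, the signalling chain of the interleukin 12 receptor, gave 10.08 and 11.03, a centred difference of 1.00, just past 2-fold, while Il12rb1, a chain that it shares with another interleukin receptor, gave 6.53 and 6.27 and was above only on the array of replicate 2. Both interleukin 18 receptor chains were above, Il18r1 at 9.23 and 9.61 and Il18rap at 7.94 and 7.56. Il2rb, the beta chain of the interleukin 2 and 15 receptors, gave 10.06 and 9.84, Il15ra 6.99 and 6.97, and Il2ra 6.71 and 7.18, above only on the array of replicate 2. Il21r (8.51 and 8.40) and Ifnar1 (9.65 and 9.44), which encode receptors of interleukin 21 and type I interferon, were above on both.

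Among transcriptional regulators of these genes, 10 of 16 were above the threshold on both arrays, 5 on neither and 1 on 1 array. Of all named genes, 31.7% were above on both arrays, and of protein-coding genes outside the reference, 39.0%. With the 99th percentile of the reference, 7 of the 16 remained above, beside 19.8% of all named genes. Stat4, which transmits the interleukin 12 signal, gave 10.40 and 11.21, the largest difference of the list at 0.85. Runx3, a regulator of cytotoxic lymphocytes, gave 7.02 and 6.92, and Prdm1, which encodes Blimp-1, 7.86 and 8.18. The T-box genes, best known as activators of Prf1, Gzmb and Ifng, were below on both arrays, Tbx21 at 6.21 and 6.10 and Eomes at 5.54 and 4.82. The margin of Tbx21 for replicate 2 was -0.09. Hopx and Nfil3 were also below on both arrays, and Hlx was above only on that of replicate 2. Zfp683, which encodes the residency factor Hobit, had the lowest signal at 4.70 and 4.39, and Id2 the highest at 12.23 and 11.93.

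On the receiving side of interferon gamma, 14 of 18 measured genes were above the threshold, at the 95th and at the 99th percentile alike. Of all named genes, 31.7% and 19.8% were above these percentiles. The receptor genes Ifngr1 (13.38 and 13.91) and Ifngr2 (8.57 and 9.25) were above it, as were Jak1 (11.81 and 12.16) and the response genes Cxcl9 (11.51 and 11.08), Gbp2 (10.18 and 10.35), Igtp (12.79 and 12.93) and Irf1 (9.53 and 9.48). Several of these genes also respond to type I interferon. Socs1 (4.82 and 4.69), Ciita (5.53 and 5.45), Ido1 (5.00 and 5.67) and Nos2 (6.35 and 5.62) were below.

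**Figure D4:**
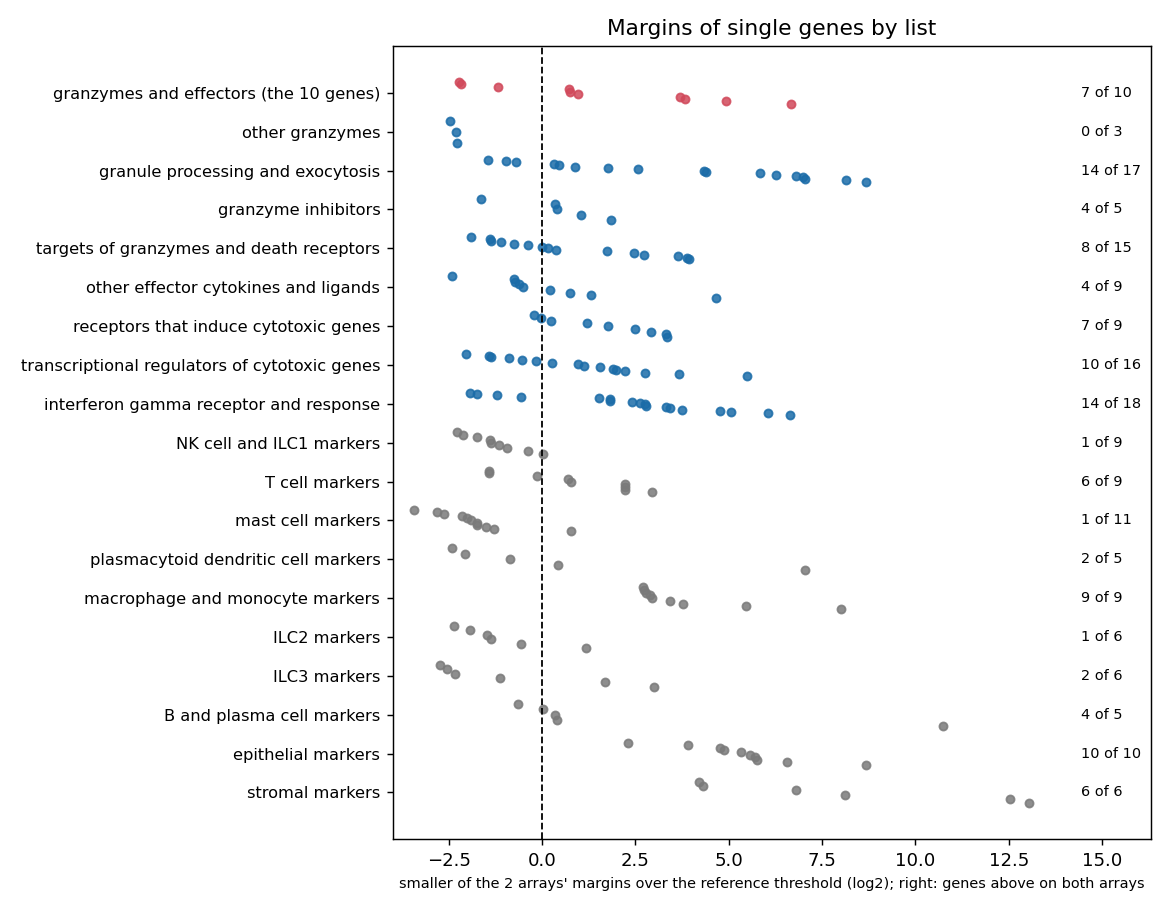
For the 10 effector genes (red), 8 pathway lists (blue) and 10 cell type marker lists (grey), each point is 1 gene at the smaller of its margins over the reference threshold on both arrays (log2), and the count at the right gives the genes above 0. Of the marker lists most tied to cytotoxic genes, NK cell and ILC1 markers have 1 of 9 genes above and mast cell markers 1 of 11, while T cell markers have 6 of 9. Of all named genes, 31.7% are above.

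Markers of the cell types that could carry these transcripts were read on the same arrays, and their part in the effector signals was not tested. In such bulk samples, fewer cells of a type and less RNA per cell cannot be told apart. Of the NK cell and ILC1 markers, only the integrin gene Itga2 (6.76 and 6.60), which other cells also express, was above the threshold, 1 of 9, and it was not with the 99th percentile. Of all named genes, 31.7% were above the threshold and 19.8% above the 99th percentile. The defining receptor genes were below on both arrays, Ncr1 at 4.63 and 4.71, Klrb1c at 5.57 and 5.31, Klrk1 at 5.35 and 5.42, Klre1 at 5.00 on both, Klrc1 at 5.80 and 5.70, and Cd160 at 4.47 and 4.26. Klrd1 (6.37 and 6.45) was above only on the array of replicate 2. The log2 of the summed signal of this list was 8.85 and 8.73.

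T cell markers were above the threshold for 6 of 9 measured genes, beside 31.7% of all named genes, and their summed signals were 11.48 and 11.58. The CD3 genes Cd3e (9.68 and 9.90), Cd3g (8.97 and 9.25) and Cd3d (8.97 and 8.61) were among them, and so were Lat, Cd4 and Cd8b1. Of the 14 listed T cell markers, 5 were not measured, among them the T cell receptor genes Trac and Trdc. Cd4 had the largest difference between the arrays, 0.92 (7.51 and 8.38). Cd8b1 gave 7.43 and 7.12, but its partner Cd8a gave 5.33 on both arrays. Cd247, the CD3 zeta gene, had the lowest signal at 5.32 and 4.94, and the costimulatory receptor gene Cd28 (6.62 and 6.77) was above only on the array of replicate 2.

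Mast cell markers were at the level of the reference except for Kit (7.53 and 7.44), 1 of 11, beside 31.7% of all named genes. Kit is a receptor gene that innate lymphoid and other gut cells also use. The mast cell protease genes were below, with Cpa3 at 4.73 and 4.47, Mcpt1 at 5.24 and 5.05, and Mcpt2 at 5.44 and 5.20. The largest difference of this list was that of Tpsb2, -0.28 (4.99 and 4.66), and the lowest signal that of Mrgprb2 (3.31 and 3.24). The summed signals were 8.82 and 8.71. Of the plasmacytoid dendritic cell markers, Klk1 (13.78 and 13.99), a kallikrein gene that glandular epithelium also expresses, and Ly6d (7.74 and 6.61, a centred difference of -1.09) were above, 2 of 5. This count is close to the 39.0% of protein-coding genes outside the reference, and nothing is read from it. The defining gene Siglech was below at 5.89 and 5.82, as was Cox6a2, and Pacsin1 had the lowest signal at 4.34 and 4.30. The summed signals, 13.82 and 14.00, are almost wholly those of Klk1.

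Macrophage and monocyte markers, which bear on Srgn, Tnf and Ccl3, were above the threshold for 9 of 9 measured genes, beside 31.7% of all named genes. Their summed signals were 15.25 and 15.29, for the most part those of Lyz2. Lists differ in size and probes in affinity, so the summed signals do not order cell types. Lyz2 had the highest signal (14.76 and 14.66), C1qc the lowest (9.48 and 9.21), and Adgre1, which encodes F4/80, the largest difference at 0.86. Several markers differed between the arrays by more in size than Nkg7, Fasl and Ifng did. Among them, Ly6d (-1.09) and Fabp1 (-1.09) were higher for replicate 1, and Cd4 (0.92) and Col3a1 (2.08) for replicate 2. Eomes of the NK cell list, below the threshold on both arrays, differed by -0.67. The median centred difference was -0.04 for NK cell and ILC1 markers and -0.02 for plasmacytoid dendritic cell markers. It was 0.39 for macrophage and monocyte markers, and over the 10 marker lists it ranged from -0.14 (ILC3) to 0.92 (stromal). The part of these markers in the differences of Nkg7, Fasl and Ifng was not tested.

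Genes tied to the sorted cells were named after their values were seen, so they describe the arrays and do not check the identity of the cells. Il10, the gene of the reporter, gave 10.59 and 11.05, the pan-leukocyte gene Ptprc 12.28 and 12.14, and Il7r, a receptor gene of innate lymphoid cells, 8.52 and 9.32, all above the threshold. The transcription factor genes Id3 (9.45 and 10.04) and Sox4 (9.33 and 9.51) were above it too. Thy1, a surface marker gene of many innate lymphoid cells and T cells, was below it on both arrays at 5.56 and 5.72. Per the design text the sort was over 95% pure. On the same arrays, all 10 epithelial markers (median signal 12.16) and all 6 stromal markers (14.62) were above the threshold, beside 31.7% of all named genes. The antibody joining chain gene Jchain gave 17.47 and 18.11. How these signals relate to the stated purity was not tested. CD3 and macrophage genes were above the threshold too, so the arrays do not assign the signals of Gzma, Gzmb or the other effector genes to a cell type.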

How the data were processed

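The deposited table holds 1 value per transcript cluster and array for 2 arrays. The authors' values were read as log2 because of their range, as no log base is stated; the submitters' processing notes name MAS5 without version or role, and for the background correction, scaling, summarization and build, the sources used here give nothing. The highest values of the arrays were 19.80 and 19.86, and 0 of the 10 effector genes were at them. The number of arrays limits the precision.

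Features with 1 symbol were used, symbols of other genes were updated through single Entrez identifiers in the GRCm38.p6 RefSeq table, and a gene with several features was read from the one of highest mean signal. Promoter sequences are RefSeq's. Python 3.11.15, pandas 2.3.3 and numpy 2.4.6 were used, and the scripts were tested on simulated data.

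The members and gene lists were chosen with earlier results of these data known. The rule for named genes took the 10 genes, the highest, lowest and most different gene of each list, and all genes of the lists of other granzymes, granzyme inhibitors, inducing receptors and NK cell markers; other genes named were chosen after their values were seen. Listed genes without such a feature were not analysed here. With 2 arrays no likeness of pattern between genes was computed. Alternatives were the 90th and 99th percentiles, keratin-associated protein and Rhox genes as the reference, the median over features, quantile normalization, each array alone, other centrings and a 1.5-fold limit.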

Additional observations from a re-analysis of the deposited data

How the results depend on the processing

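The count of effector genes above the threshold, 7 of 10, was the same with the 90th percentile, with Rhox and keratin-associated protein genes as the reference, the median over features, quantile normalization and each array alone, and its background was also set to protein-coding genes after the data were seen. The share of all named genes above did move. It was 31.7% in the main setting, 39.0% with the 90th percentile and 34.8% with Rhox and keratin-associated protein genes. Without replicate 1 the share was 38.6%, and without replicate 2 it was 32.3%. With the 99th percentile, stricter by construction, the count was 4, beside 19.8% of all named genes: the margins of Gzmk, Fasl and Ifng turned to -0.20, -0.31 and -0.28. There the counts above were also 1 for granzyme inhibitors, 2 for other effector cytokines, 0 for NK cell and ILC1 markers, 0 for mast cell markers, 1 for plasmacytoid dendritic cell markers and 1 for B and plasma cell markers. NK cell and ILC1 markers had 2 above with the 90th percentile, and 1 to 2 without replicate 2 or replicate 1, the added gene without replicate 1 being Klrd1. With a fold limit of 1.5, 3 effector genes differed between the arrays; under the other centrings, quantile normalization and the median over features the count past 2-fold was 0. No paired analysis was possible because the series holds 1 group.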

Other observations

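Markers of other innate lymphoid subsets were above the threshold in some cases, beside 31.7% of all named genes. Of the ILC2 markers 1 of 6 was above the threshold, the transcription factor gene Rora (7.91 and 8.49 on the arrays of replicates 1 and 2), and the interleukin 9 receptor gene Il9r had the lowest signal (4.37 and 4.28). Of the ILC3 markers 2 of 6 were above, the interleukin 1 receptor gene Il1r1 (9.75 and 9.52) and the aryl hydrocarbon receptor gene Ahr (8.44 and 8.56). Il17a had the lowest signal (4.01 and 3.98), and Il22, also below, differed most between the arrays (4.80 and 3.85).

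Markers of cells outside the innate lymphoid lineage were above the threshold for 4 of 5 B and plasma cell genes, 10 of 10 epithelial genes and 6 of 6 stromal genes. Of all named genes, 31.7% were above it. The antibody joining chain gene Jchain gave 17.47 and 18.11, and Tnfrsf17, the BCMA gene, was the B and plasma cell gene below the threshold (6.38 and 5.54). The keratin genes Krt8 (15.42 and 15.76) and Krt20 (9.03 and 9.80) had the highest and lowest epithelial signals, and Fabp1, a lipid carrier gene of enterocytes, differed most (13.04 and 11.90). Among stromal genes, Dpt was at the highest value of each array (19.80 and 19.86), and whether its signal was saturated was not tested. Col1a2 had the lowest stromal signal (10.94 and 12.78), and Col3a1 differed most (11.06 and 13.10).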
